A study of Mus musculus with 20 samples.

Results

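The genes described here make cholesterol, control that synthesis through sterol regulatory element binding protein 2 (SREBP2), and move sterol inside the cell. The list held 29 genes, and a gene counted as measured where a probe set was annotated to it and to no other gene. On that rule 26 of the 29 were measured, out of 18193 genes named on the array, and all 26 were among the 12947 genes tested. They were 19 of 20 synthesis enzymes, 4 of 4 control genes and 3 of 5 sterol transport genes. Acat2, Soat1 and Soat2 had no such probe set and are not analysed here. Each gene is represented by its brightest probe set on average across the 20 arrays, and any other probe sets served as a check.

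Hepatocytes build cholesterol from acetyl-CoA. HMG-CoA is formed first, mevalonate is turned into prenyl diphosphates, these are joined into squalene, squalene is closed into lanosterol, and lanosterol is trimmed to cholesterol. SREBP2, carried by its escort SCAP, leaves the endoplasmic reticulum when sterol is low, is cut in the Golgi, and switches on the genes of nearly every step. The proteins Insig1 and Insig2 hold SCAP back when sterol is plentiful, and in liver insulin is known to act on this axis as well.

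The study put liver RNA of male BALB/c mice, aged 6 weeks when they arrived, on Affymetrix arrays with 1 mouse per array. STZ mice had a single intraperitoneal injection of streptozotocin, a toxin of insulin-producing beta cells, at 185 mg/kg and ate plain AIN93G diet for 14 days. The 0.1% and 0.5% phloridzin mice had the same injection and ate AIN93G with that share of phloridzin, a plant glucoside that blocks sodium-glucose cotransporters, for the same 14 days. Untreated mice ate AIN93G for 14 days and had no injection, so streptozotocin and the injection itself cannot be told apart in any comparison with them. Injected mice were allocated at a non-fasting blood glucose of 330 to 590 mg/dL. Each group had 6 mice, and arrays were made for 5 of the 6.

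Signals are the deposited linear intensities of a probe set, and an array's median signal was between 11.2 and 17.1. The highest of these, 17.1, is taken below as background, and all 26 genes had a mean above it. Log2 differences were taken on signal plus 16, so that fold changes are folds of signal plus 16 and understate the change of dim genes. A gene is said to have risen or fallen where limma's adjusted p over the 12947 genes was under 0.05. All 11 measured hepatocyte markers were above background. Arrays of a group correlated at 0.964 to 0.988 over the genes tested. Albumin read 34074 in 0.1% phloridzin mouse 4 against 8661 to 16790 in the other 19 mice, and the 3′ to 5′ ratio of Gapdh probes was 1.07 in untreated mouse 5 against 0.676 to 0.797 in the rest. Results that turn on either mouse are given without it below.

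Promoter stretches are shown for the genes that fell and had an entry in the RefSeq promoter table (GRCm38.p6), because SREBP2 is known to bind its sites together with NF-Y, the factor of the CCAAT box. Capitals mark CCAAT on either strand (ATTGG is the reverse) and, in Hmgcs1 alone, TCACCCCAC, a match to the sterol regulatory element TCACNCCAC. Each stretch reads 5′ to 3′ on the gene's own strand.
Hmgcs1: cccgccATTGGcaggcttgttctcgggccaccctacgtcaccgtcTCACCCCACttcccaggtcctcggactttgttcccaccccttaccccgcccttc
Pmvk: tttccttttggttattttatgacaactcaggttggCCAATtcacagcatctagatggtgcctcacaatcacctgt
Idi1: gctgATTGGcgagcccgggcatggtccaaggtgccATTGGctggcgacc
Cyp51: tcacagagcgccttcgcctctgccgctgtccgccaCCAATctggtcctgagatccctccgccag
Sc5d: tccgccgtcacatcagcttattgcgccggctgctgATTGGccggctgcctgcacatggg
Insig1: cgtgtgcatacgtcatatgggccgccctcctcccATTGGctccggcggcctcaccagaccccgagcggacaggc
Insig2: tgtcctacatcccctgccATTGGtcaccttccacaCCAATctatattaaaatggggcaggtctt

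These lie at chr13:119690169-119690267 (plus strand) for Hmgcs1, chr3:89454370-89454444 (plus) for Pmvk, chr13:8885557-8885605 (plus) for Idi1, chr5:4104698-4104761 (minus) for Cyp51, chr9:42264301-42264359 (minus) for Sc5d, chr5:28071162-28071235 (plus) for Insig1 and chr1:121332590-121332653 (minus) for Insig2. The Hmgcs1 match to the sterol element begins 137 bases before the start of the gene. Within the 250 bases before the start, searched on both strands, CCAAT was found in 20 of the 21 measured genes with a promoter entry and in 37.5% of the 27025 genes of the table. The GC box GGGCGG was found in 19 of the 21, and in 35.4% of the table's genes. TCACNCCAC was found in 1 of the 21 and in 1.22% of the table's genes. The motifs do not overlap in their letters, a match is only a description of the sequence, and looser forms of the sterol element were not searched.

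The first question was how the pathway stood in diabetic liver beside untreated liver. In STZ liver 7 of the 26 genes fell and 1 rose, where 13.8% of all genes tested were called, 6.89% lower and 6.9% higher. The 7 were the enzymes Hmgcs1, Pmvk, Fdps, Cyp51 and Sc5d and the control genes Insig1 and Insig2, with falls of 1.61-fold to 3.32-fold, and the gene that rose was Npc1. Over the 26 genes the median log2 difference was −0.43, against −0.05 over all genes tested, and 20 of the 26 differences were below 0. In 11 genes every STZ mouse was below every untreated mouse and in 1 gene every STZ mouse was above, where 12.9% of all genes tested were so separated, 6.75% below and 6.12% above. Fewer cells of a type and less RNA per cell cannot be told apart in whole liver.

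In 0.1% phloridzin liver 6 of the 26 genes fell and 2 rose against untreated liver, where 16.7% of all genes were called, 8.98% lower and 7.76% higher. In 0.5% phloridzin liver 5 fell and 2 rose, where 12.7% of all genes were called, 6.18% lower and 6.53% higher. The median over the 26 genes was −0.35 at 0.1% and −0.46 at 0.5% phloridzin, against −0.04 and −0.01 over all genes. Against untreated mice, 2 genes were wholly below and 2 wholly above at 0.1% phloridzin (13.2% of all genes were separated, 7.13% below and 6.02% above), and 4 wholly below and 2 wholly above at 0.5% (11.1% of all genes, 5.71% below and 5.41% above). The comparisons share the 5 untreated mice and are set side by side only. Hmgcs1, Sc5d, Insig1 and Insig2 fell in all 3, and Npc1 rose in all 3. Under 12 other settings of the processing, the 0.1% calls of Sc5d, Insig1 and Insig2 ended in 8, 6 and 5. The 0.5% calls of Hmgcs1 and Sc5d ended in 4 each. All other calls of these genes ended only with the 1.5-fold limit given next.

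With a fold of at most 1.5 in either direction as the null (limma's treat), 0 of the 26 genes passed in any of the 3 comparisons. Of all genes tested, 0.618%, 0.633% and 0.548% passed in STZ, 0.1% and 0.5% phloridzin liver. With only STZ and untreated arrays in the fit, 15 of the 26 were called, 14 lower and 1 higher, where 16.2% of all genes tested were called, 8.75% lower and 7.46% higher. The 0.5% comparison fitted alone gave 12, 10 lower and 2 higher, where 12.5% of all genes were called, 6.16% lower and 6.3% higher. The 0.1% comparison fitted alone gave fewer than the full fit, 6, with 4 lower and 2 higher. There 15.9% of all genes were called, 8.79% lower and 7.11% higher.

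**Figure D1:**
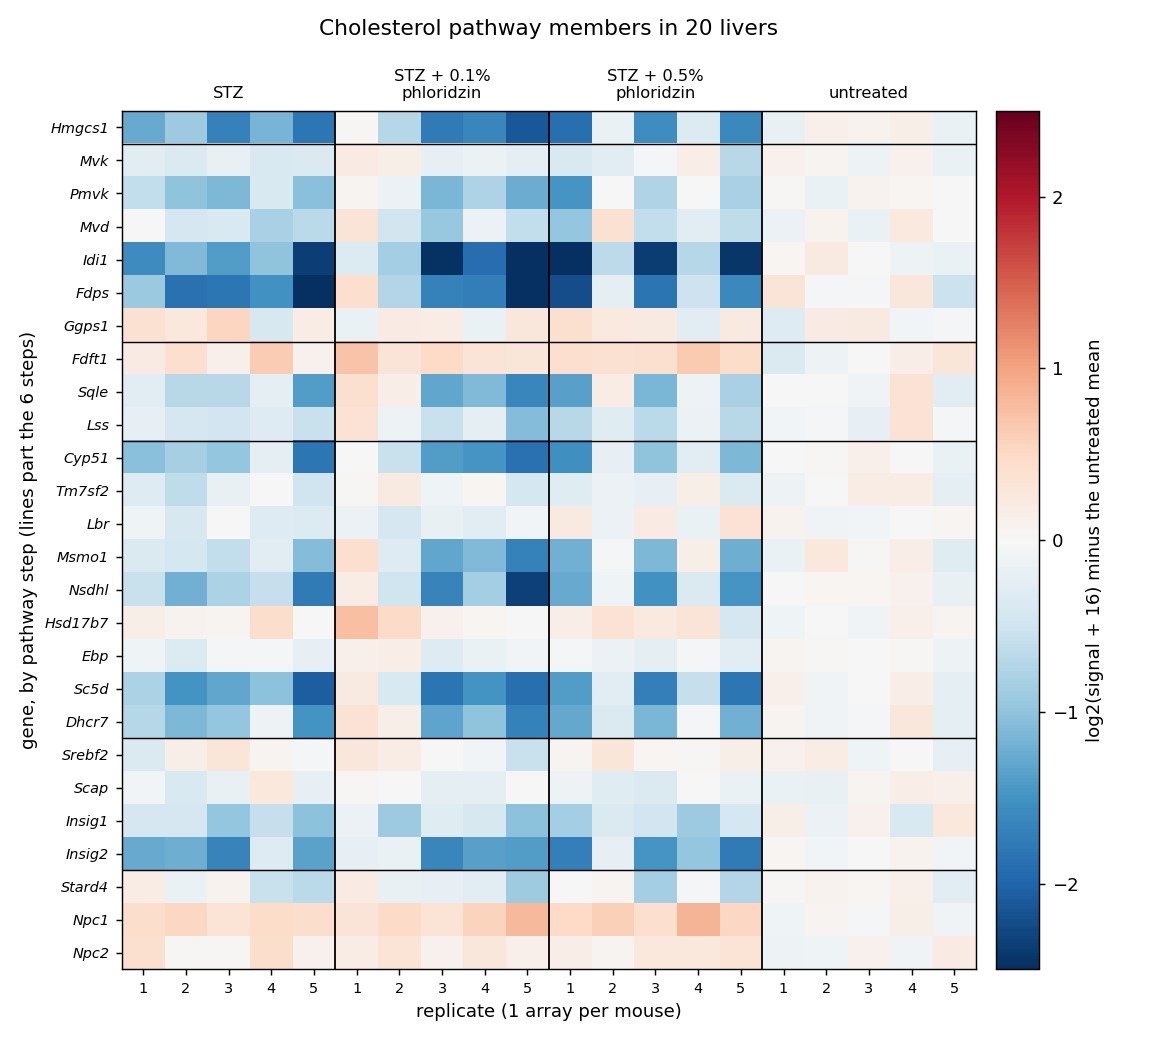
Log2 difference of signal plus 16 from the mean of the untreated mice, for the 26 measured genes (rows, by pathway step) in each of the 20 mice (columns, STZ, 0.1% phloridzin, 0.5% phloridzin and untreated). Most enzyme rows lie below 0 in diabetic mice, and Npc1 lies above 0 in all 15. The enzyme columns of 0.5% mice 2 and 4 average near 0, and that of 0.1% mouse 1 lies mostly above 0.

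Hmgcs1, the synthase that joins acetoacetyl-CoA and acetyl-CoA into HMG-CoA, had signals of 978, 1253, 716, 1041 and 661 in STZ liver, 2388, 1428, 682, 753 and 528 in 0.1% phloridzin liver, 629.9, 2104, 787, 1856 and 757 in 0.5% phloridzin liver and 2054, 2568, 2505, 2597 and 2106 in untreated liver. Every STZ mouse was below the lowest untreated mouse, as were 4 of 5 mice at each phloridzin dose, while 1 mouse at each dose lay in the untreated range. Hmgcs1 fell 2.57-fold in STZ liver (log2 −1.36 ± 0.36 SE, adjusted p = 0.0143), 2.36-fold at 0.1% (adjusted p = 0.0203) and 2.16-fold at 0.5% phloridzin (adjusted p = 0.0438). Its 3 other probe sets above background had STZ log2 differences of −1.26, −1.43 and −1.39.

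Among the 6 genes from mevalonate to the prenyl diphosphates, 2 fell in STZ liver and 1 fell at each phloridzin dose. Among all genes tested, 6.89%, 8.98% and 6.18% fell in STZ, 0.1% and 0.5% phloridzin liver. Idi1, the isomerase that makes dimethylallyl diphosphate, had signals of 262, 368, 299, 396 and 145 in STZ liver, 636, 443, 134, 207 and 45.7 in 0.1% phloridzin liver, 113, 511, 145, 492 and 138 in 0.5% phloridzin liver and 842, 950.1, 823, 747 and 720.3 in untreated liver. All 15 diabetic mice were below all 5 untreated mice. Idi1 fell 3.64-fold at 0.1% (log2 −1.86, adjusted p = 0.0139) and 3.40-fold at 0.5% phloridzin (log2 −1.77, adjusted p = 0.0241), while in STZ liver its difference of −1.49 ± 0.50 SE had an adjusted p of 0.0502, just outside the threshold.

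Fdps, which makes farnesyl diphosphate, the last precursor shared by sterols and prenyl groups, had signals of 727, 370.0, 386, 476 and 229 in STZ liver, 1883, 833, 421, 411 and 200.4 in 0.1% phloridzin liver, 288, 1189, 383, 975 and 448 in 0.5% phloridzin liver and 1740.0, 1357, 1378, 1716 and 955 in untreated liver. The STZ mice lay wholly below the untreated mice, whereas mouse 1 at 0.1% was above the highest of them and mice 2 and 4 at 0.5% were within their range. Its fall in STZ liver (log2 −1.73 ± 0.45 SE, adjusted p = 0.0150) was the largest among the 26 genes in that comparison. At 0.1% and 0.5% phloridzin the differences of −1.29 and −1.28 had adjusted p of 0.0567 and 0.0685.

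Pmvk, the kinase that adds the second phosphate to mevalonate, had signals of 153, 113, 103, 184 and 111 in STZ liver, 255, 218, 102, 135 and 94.5 in 0.1% phloridzin liver, 77.4, 243, 138, 245 and 132 in 0.5% phloridzin liver and 249, 215, 262, 254 and 242 in untreated liver. STZ and untreated mice did not overlap, and 2 mice at each phloridzin dose lay in the untreated range. Pmvk fell 1.78-fold in STZ liver (adjusted p = 0.0394) and had log2 differences of −0.65 and −0.61 at 0.1% and 0.5% phloridzin (adjusted p = 0.0970 and 0.136). The other 3 genes of the segment passed no test by their brightest probe sets. Mvk, the kinase before Pmvk, averaged 68.9 ± 4.76 in STZ, 87.1 ± 15.1 in 0.1%, 75.1 ± 20.5 in 0.5% phloridzin and 90.0 ± 9.28 in untreated liver (SD, n = 5 each), and its STZ and untreated mice did not overlap. Mvd, the decarboxylase after Pmvk, had differences of −0.45, −0.37 and −0.42 in STZ, 0.1% and 0.5% phloridzin liver. A second Mvd probe set above background had −0.83, −0.62 and −1.04. In a limma fit of all probe sets of 1 gene it passed at 0.5% phloridzin (adjusted p = 0.0254). Ggps1, which leads away from sterols to geranylgeranyl diphosphate, had 0.20, 0.07 and 0.16 in the same order. Its other probe sets, all above background, had STZ differences of −0.37, −0.12 and −0.12, opposite in sign.

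**Figure D2:**
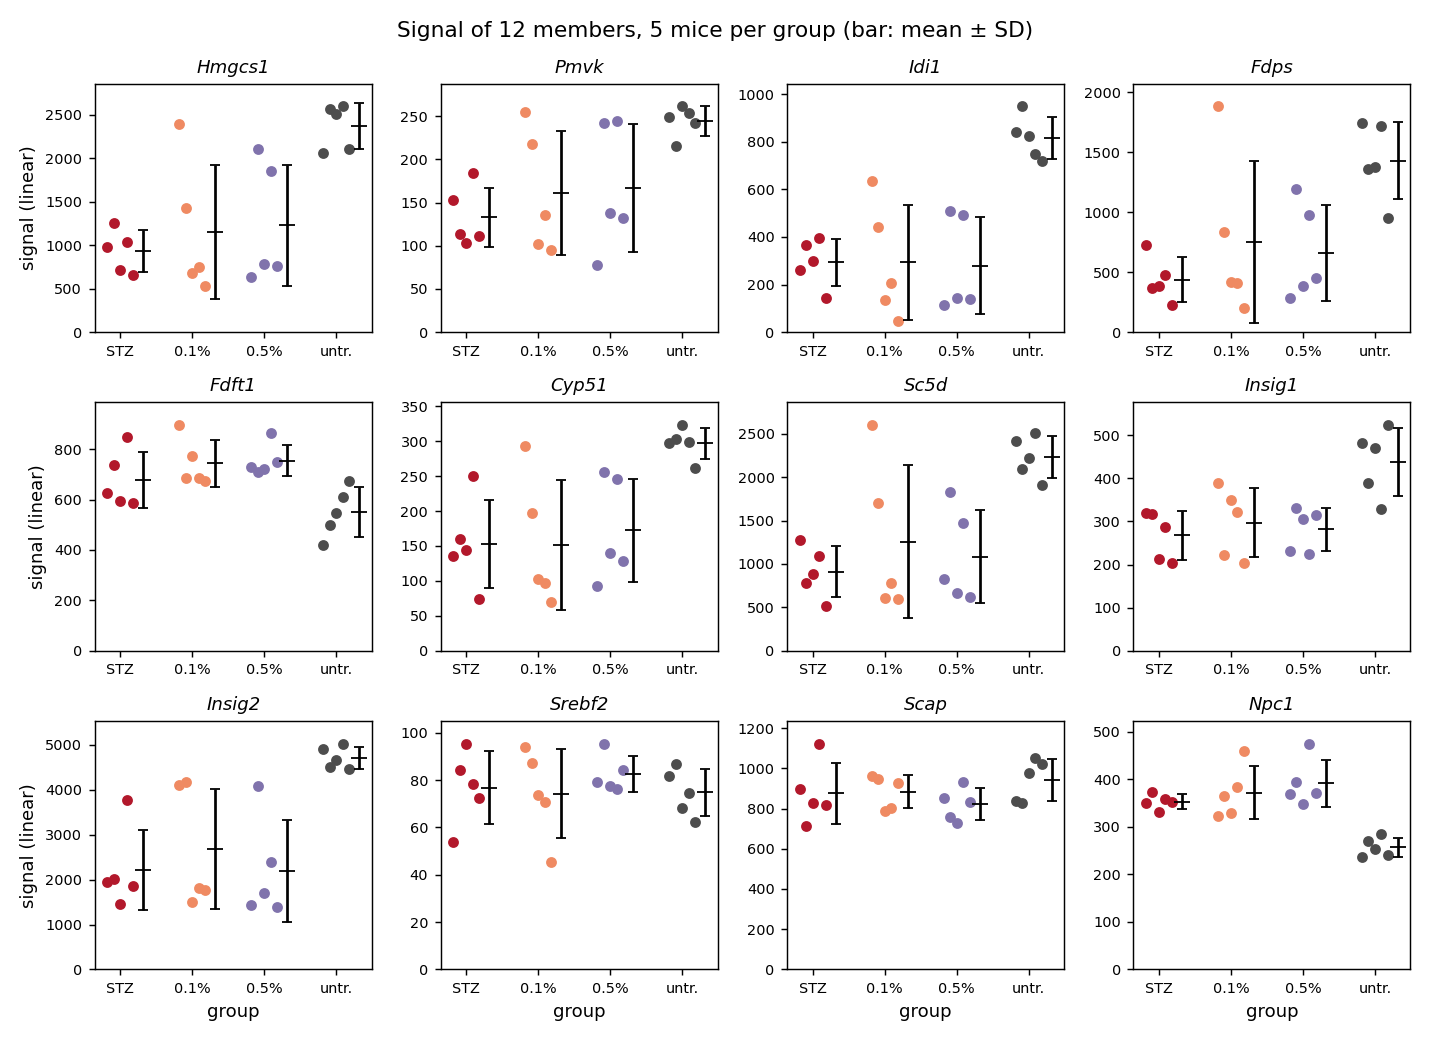
Signal of each mouse (points, linear axis from 0) and group mean (bar) for the 12 genes given by mouse, in STZ, 0.1% phloridzin, 0.5% phloridzin and untreated liver. Idi1 and Insig2 lie below the untreated mice in all 15 diabetic mice, Npc1 lies above them in all 15, and Srebf2 and Scap overlap in every group.

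Of the 3 genes that make squalene and lanosterol, 0 were called in STZ liver and 1 rose at each phloridzin dose. Over all genes tested, 13.8% were called in STZ liver, and 7.76% and 6.53% rose at 0.1% and 0.5% phloridzin. Fdft1, squalene synthase, which joins 2 molecules of the Fdps product, had signals of 626, 737, 596, 848 and 586 in STZ liver, 897, 688, 774, 685 and 675 in 0.1% phloridzin liver, 728, 709, 724, 863 and 749.6 in 0.5% phloridzin liver and 420.4, 499, 547, 612 and 675 in untreated liver. Every phloridzin mouse was above every untreated mouse, by a narrow margin at 0.1% (674.8 in its lowest mouse and 674.6 in the highest untreated mouse), while 3 of the 5 STZ mice lay within the untreated range. Fdft1 rose 1.35-fold at 0.1% (log2 0.43, adjusted p = 0.0239) and 1.37-fold at 0.5% phloridzin (log2 0.46, adjusted p = 0.0229), and its STZ difference was 0.30 ± 0.13 SE (adjusted p = 0.127). A second Fdft1 probe set above background had 0.43 in STZ, 0.63 in 0.1% and 0.58 in 0.5% phloridzin liver, and in a limma fit of all probe sets of 1 gene it passed in all 3 (adjusted p = 0.0428, 0.00333 and 0.00811), so that the STZ call depends on the probe set. The other 2 Fdft1 probe sets were under background. With the mean of all 4 probe sets the 0.5% difference was 0.14 and was not called. In the same limma fit of all probe sets, the brightest probe sets of some called genes did not pass. In STZ liver these were Pmvk (adjusted p = 0.0662) and Cyp51 (0.0739). At 0.1% phloridzin they were Sc5d (0.0742), Insig1 (0.0622) and Insig2 (0.0619). At 0.5% phloridzin they were Hmgcs1 (0.0735), Sc5d (0.0672) and Insig1 (0.0544).

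Sqle, the epoxidase that opens the way to ring closure, and Lss, which closes the ring to lanosterol, passed no test. Sqle averaged 69.0 ± 24.5 in STZ, 77.8 ± 59.6 in 0.1%, 73.7 ± 41.5 in 0.5% phloridzin and 114 ± 21.4 in untreated liver (SD, n = 5 each), with log2 differences from untreated of −0.66, −0.70 and −0.64. Lss had −0.40, −0.33 and −0.50, and its STZ mice, at 112 to 145, were all below the untreated mice, at 147 to 223.

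In the 9 genes from lanosterol to cholesterol, 2 fell in STZ liver, 2 at 0.1% and 1 at 0.5% phloridzin. The shares of all genes that fell were 6.89%, 8.98% and 6.18% in the same order. Cyp51, the lanosterol demethylase, had signals of 135, 160.2, 145, 250.1 and 74.0 in STZ liver, 294, 197, 102, 96.3 and 69.8 in 0.1% phloridzin liver, 92.3, 256, 140.4, 246 and 128 in 0.5% phloridzin liver and 298, 303, 323, 299 and 262 in untreated liver. STZ and 0.5% phloridzin mice were all below the untreated mice, and only mouse 1 at 0.1% was not. Cyp51 fell 1.96-fold in STZ (adjusted p = 0.0445) and 2.09-fold in 0.1% phloridzin liver (adjusted p = 0.0250), and at 0.5% phloridzin its difference of −0.82 had an adjusted p of 0.0921 in spite of the separation.

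Sc5d, the desaturase of the late sterol ring, had signals of 1281, 781, 888, 1088 and 519.5 in STZ liver, 2602, 1698, 611, 776 and 591 in 0.1% phloridzin liver, 829, 1829, 668, 1477 and 621 in 0.5% phloridzin liver and 2412, 2099, 2219, 2507 and 1908 in untreated liver. All mice of the STZ and 0.5% groups and 4 of 5 at 0.1% were below the untreated mice, and mouse 1 at 0.1% was above them all. Sc5d fell 2.52-fold in STZ (log2 −1.33 ± 0.36 SE, adjusted p = 0.0184), 2.10-fold in 0.1% (adjusted p = 0.0466) and 2.23-fold in 0.5% phloridzin liver (adjusted p = 0.0397).

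The remaining 7 genes of the segment passed no test. Nsdhl, of the sterol demethylation complex, averaged 376 ± 122 in STZ, 414 ± 271 in 0.1%, 402 ± 196 in 0.5% phloridzin and 723 ± 55.7 in untreated liver (SD, n = 5 each). Its STZ and untreated mice did not overlap, and its log2 differences of −0.98, −1.03 and −0.94 had adjusted p of 0.0823, 0.0585 and 0.0960. Dhcr7, the last reductase of one branch, had differences of −0.89, −0.70 and −0.80 with adjusted p of 0.0894, 0.166 and 0.130. Msmo1, the methyl oxidase that acts with Nsdhl, had −0.55, −0.80 and −0.69, with adjusted p of 0.282, 0.101 and 0.182. Tm7sf2, Lbr, Hsd17b7 and Ebp, the reductases and isomerase beside them, had differences between −0.33 and 0.28 in the 3 comparisons.

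**Figure D3:**
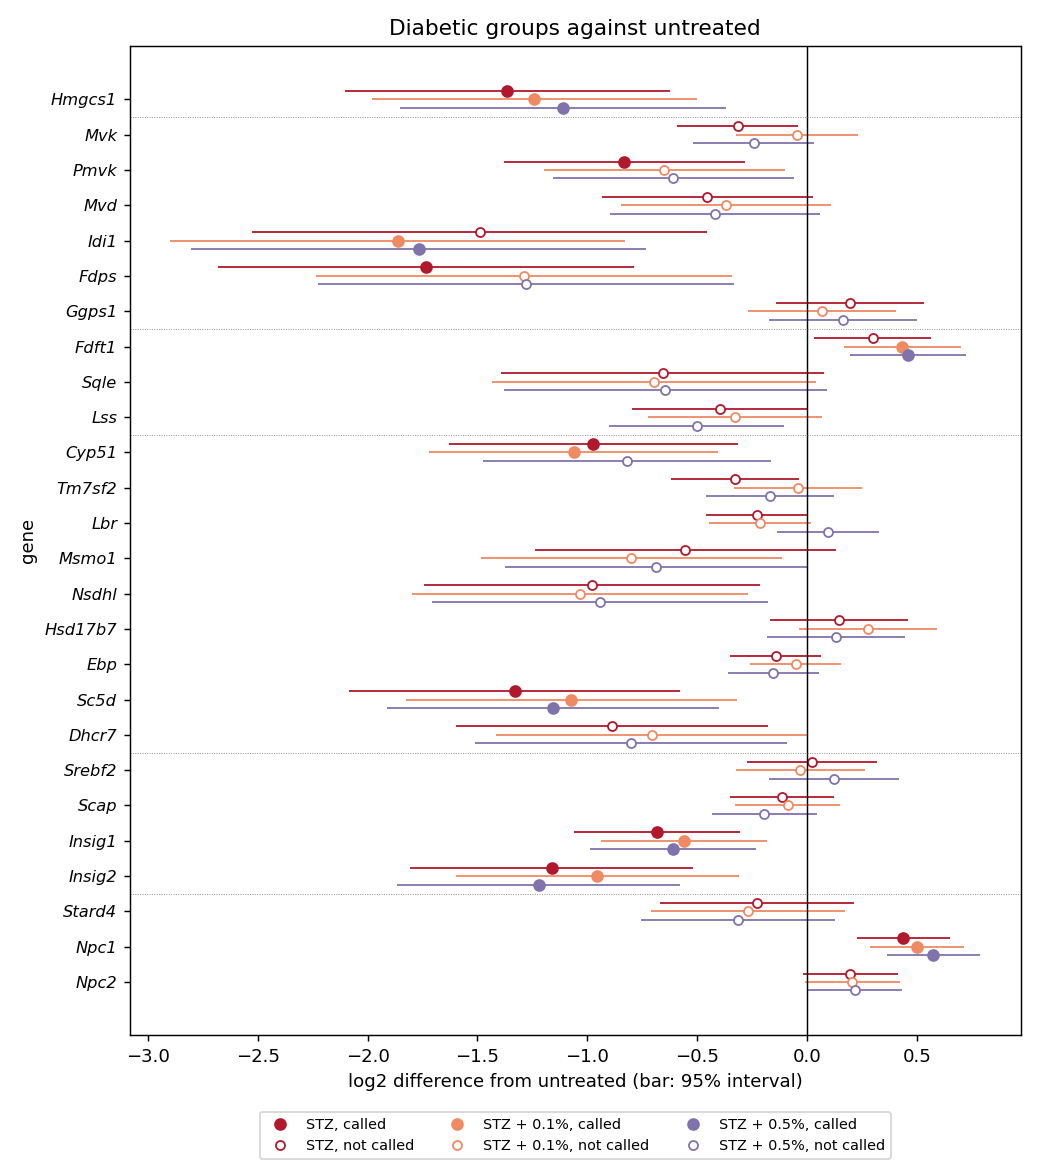
Log2 difference of signal plus 16 from untreated liver with its 95% interval, for the 26 genes by pathway step, in STZ, 0.1% phloridzin and 0.5% phloridzin liver, with filled points where limma's adjusted p was under 0.05. Synthesis genes lie to the left of 0 in most rows, and Fdft1 and Npc1 carry the filled points to the right.

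The mRNA of the regulator itself did not pass a test. Srebf2, which encodes SREBP2, had signals of 53.9, 84.3, 95.4, 78.2 and 72.3 in STZ liver, 94.0, 87.1, 73.9, 70.6 and 45.4 in 0.1% phloridzin liver, 79.4, 95.2, 77.4, 76.4 and 84.3 in 0.5% phloridzin liver and 81.9, 86.9, 68.2, 74.5 and 62.4 in untreated liver. Each diabetic group overlapped the untreated mice, with STZ and 0.1% phloridzin mice on both sides of the untreated mean of 74.8 and all 5 of the 0.5% phloridzin mice above it. The log2 differences of 0.02, −0.03 and 0.12 had 95% intervals of −0.27 to 0.32, −0.33 to 0.26 and −0.17 to 0.42, so that changes inside these bounds could not be told from 0. The arrays do not measure the cut, active form of the protein.

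Scap, the sterol-sensing escort of SREBP2, had signals of 896, 715, 829, 1123 and 815 in STZ liver, 961, 945, 786, 803 and 929 in 0.1% phloridzin liver, 852, 759, 731, 932 and 831 in 0.5% phloridzin liver and 837, 829, 979, 1049 and 1022 in untreated liver. The groups overlapped, with differences from untreated of −0.11, −0.09 and −0.19 (adjusted p = 0.55, 0.646 and 0.289).

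Both genes of the retaining proteins fell in all 3 diabetic groups. Insig1, which is itself a known target of SREBP2, had signals of 319.8, 317, 213, 287 and 203 in STZ liver, 388, 223, 349.6, 323 and 203 in 0.1% phloridzin liver, 233, 332, 306, 224 and 315 in 0.5% phloridzin liver and 482, 389, 469.5, 328 and 524 in untreated liver. STZ mice were all below the untreated mice, and 3 of 5 mice at 0.1% and 4 of 5 at 0.5% phloridzin were. Insig1 fell 1.61-fold in STZ (adjusted p = 0.0161), 1.47-fold in 0.1% (adjusted p = 0.0387) and 1.52-fold in 0.5% phloridzin liver (adjusted p = 0.0321).

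Insig2, whose liver transcript is known to be repressed by insulin, had signals of 1954, 2011, 1466, 3769 and 1857 in STZ liver, 4096, 4169, 1510.0, 1822 and 1773 in 0.1% phloridzin liver, 1437, 4090.0, 1695, 2387 and 1379 in 0.5% phloridzin liver and 4901, 4508, 4669, 5028 and 4468 in untreated liver. All 15 diabetic mice were below all 5 untreated mice, and within the diabetic groups STZ mouse 4, 0.1% mice 1 and 2 and 0.5% mouse 2 were the nearest to them. Insig2 fell 2.24-fold in STZ (log2 −1.16 ± 0.31 SE, adjusted p = 0.0163), 1.94-fold in 0.1% (adjusted p = 0.0385) and 2.33-fold in 0.5% phloridzin liver (adjusted p = 0.0130). Its 2 other probe sets had STZ differences of −1.22 and −1.11 and 0.5% phloridzin differences of −1.41 and −1.38.

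Whether the pair fell unequally was asked within each array, as the log2 signal of Insig2 minus that of Insig1. The value averaged 2.92 ± 0.46 in STZ, 3.00 ± 0.81 in 0.1%, 2.78 ± 0.63 in 0.5% phloridzin and 3.40 ± 0.31 in untreated liver (SD, n = 5 each). The STZ difference from untreated was −0.48 (two-sided exact permutation p = 0.0873, adjusted over 6 comparisons 0.333), the 0.1% difference was −0.40 (exact permutation p = 0.341, adjusted 0.683) and the 0.5% difference was −0.61 (exact permutation p = 0.111, adjusted 0.333). None of the 6 comparisons passed, and with 5 mice against 5 the smallest possible p was 0.00794. An unequal fall was not detectable with these mice.

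Of the 3 measured sterol transport genes, 1 rose in each diabetic group, where 6.9%, 7.76% and 6.53% of all genes rose. Npc1, the lysosomal membrane protein that releases cholesterol taken up with lipoproteins, had signals of 351, 373, 330.3, 359 and 352 in STZ liver, 322, 364, 328, 385 and 460.1 in 0.1% phloridzin liver, 368, 395, 348, 475 and 371 in 0.5% phloridzin liver and 236, 269.5, 252.3, 285 and 241 in untreated liver. All 15 diabetic mice were above all 5 untreated mice. Npc1 rose 1.35-fold in STZ (log2 0.44 ± 0.10 SE, adjusted p = 0.00705), 1.41-fold in 0.1% (adjusted p = 0.00255) and 1.49-fold in 0.5% phloridzin liver (adjusted p = 0.00120), and it was the only one of the 26 genes to keep its call in all 3 comparisons whichever single array was left out. Npc2, its soluble partner, had differences of 0.20, 0.21 and 0.22 (adjusted p = 0.218, 0.181 and 0.180). Stard4, a carrier of sterol between membranes, had −0.23, −0.27 and −0.32 (adjusted p = 0.516, 0.425 and 0.36).

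In a single test of any difference among the 4 groups (limma's moderated F), 6 of the 26 genes passed, where 12.9% of all genes tested did. They were Npc1 (adjusted p = 0.00266), Insig2 (0.0265), Hmgcs1 (0.0336), Idi1 (0.0360), Insig1 (0.0385) and Sc5d (0.0472). Fdft1 and Fdps had 0.0501 and 0.0508.

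The second question was whether phloridzin in the diet altered the pathway within diabetic mice. At 0.1% phloridzin 0 of the 26 genes were called against STZ, at 0.5% 0 were called, and between the doses 0 were called, where limma called 0% of all genes tested at the same threshold in each of the 3 comparisons. The number with an unadjusted p under 0.05 was 0, 1 and 1, and the gene was Lbr, a sterol reductase of the nuclear membrane, both times. Lbr averaged 111 ± 15.6 in STZ, 112 ± 11.2 in 0.1% and 143 ± 25.7 in 0.5% phloridzin liver (SD, n = 5 each), and its difference at 0.5% from STZ was 0.32 (adjusted p = 0.985). No gene had every mouse of one group above every mouse of the other in these 3 comparisons, where 0.68%, 0.842% and 0.803% of all genes had.

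The intervals for single genes were wide. For Hmgcs1 the difference from STZ was 0.12 at 0.1% (95% interval −0.62 to 0.86) and 0.25 at 0.5% phloridzin (−0.49 to 0.99). For Fdps it was 0.44 (−0.50 to 1.39) and 0.45 (−0.49 to 1.40). Both Fdps intervals hold 0 and reach far towards the size of its STZ fall of 1.73, so a return towards untreated levels is neither shown nor bounded closely. Idi1 had −0.37 (−1.41 to 0.66) and −0.28 (−1.31 to 0.76), and Insig2 had 0.21 (−0.44 to 0.85) and −0.06 (−0.70 to 0.59). Npc1 had the narrowest of those given here, 0.06 (−0.15 to 0.27) and 0.14 (−0.08 to 0.35). Over the 26 genes the median difference from STZ was 0.08 at 0.1% and 0.05 at 0.5% phloridzin, against 0.00 and 0.02 over all genes tested.

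**Figure D4:**
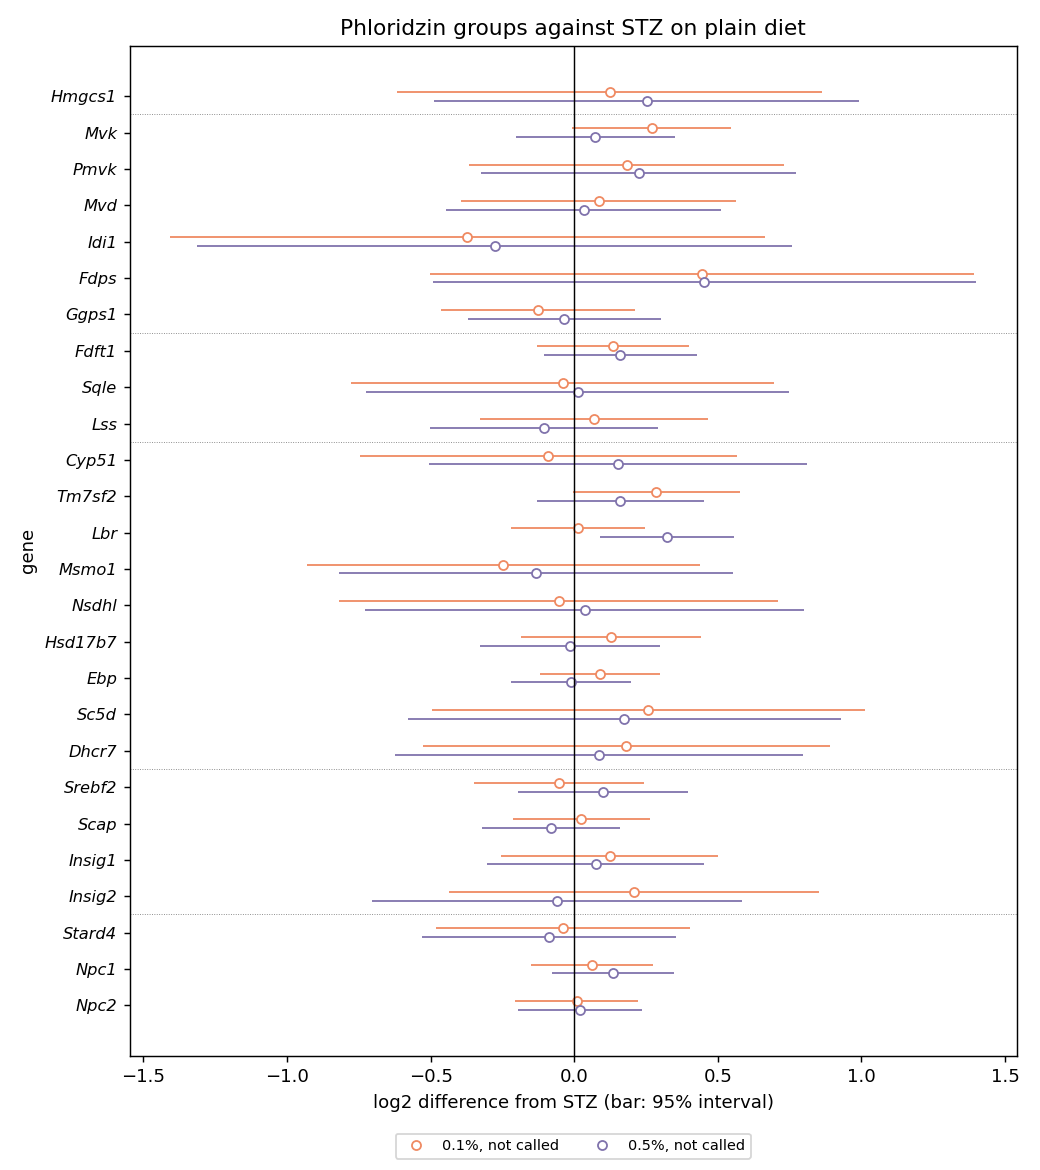
Log2 difference of signal plus 16 from STZ liver with its 95% interval, for the 26 genes in 0.1% and 0.5% phloridzin liver. No gene was called in either comparison, and the intervals of Idi1, Fdps and Nsdhl span more than those of Npc1, Scap or Ebp.

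The mice of the phloridzin groups were far apart from each other in the synthesis genes. The median SD over the 19 enzymes was 0.32 on the log2 scale in STZ, 0.58 in 0.1% phloridzin, 0.57 in 0.5% phloridzin and 0.16 in untreated liver, where the median SD over all genes tested was 0.21, 0.23, 0.22 and 0.18. Untreated liver had the smallest SD of the 4 groups in 15 of the 19 enzymes, and 0.1% phloridzin liver the largest in 12. The enzymes of a mouse share 1 RNA sample and 1 array, so they are not independent measures of its spread.

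Within a group the enzymes tended to be high or low in the same mice. Averaged over the 19 enzymes, the log2 difference from the untreated mean was −0.44, −0.65, −0.62, −0.41 and −1.04 in STZ mice 1 to 5, 0.21, −0.18, −0.92, −0.73 and −1.20 in 0.1% phloridzin mice, −0.92, −0.08, −0.78, −0.12 and −0.85 in 0.5% phloridzin mice and −0.03, 0.02, 0.00, 0.14 and −0.13 in untreated mice. Mouse 1 at 0.1% phloridzin was the highest of its group in 15 of 19 enzymes and had 12 of them above the untreated range, and mouse 5 was the lowest of its group in 15. At 0.5% phloridzin the averages of mice 2 and 4 stood near the untreated mean and those of mice 1, 3 and 5 well below it. Mice 2 and 4 still had 8 and 7 of the 19 enzymes below the untreated range, and 4 and 3 above it. In STZ liver mouse 4 was the highest in 10 enzymes and mouse 5 the lowest in 12.

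Insig2 in the same mice was −1.26, −1.22, −1.67, −0.32 and −1.34 from the untreated mean in STZ mice 1 to 5, −0.20, −0.18, −1.63, −1.36 and −1.40 in 0.1% and −1.70, −0.20, −1.47, −0.98 and −1.76 in 0.5% phloridzin mice. The mice with the least lowered enzymes at each phloridzin dose were also among those with the least lowered Insig2. Npc1 in the same mice was 0.43, 0.52, 0.35, 0.46 and 0.43 from the untreated mean in STZ, 0.31, 0.48, 0.34, 0.56 and 0.81 in 0.1% and 0.50, 0.59, 0.42, 0.85 and 0.51 in 0.5% phloridzin mice, all above 0. At 0.5% phloridzin mice 2 and 4, with the least lowered enzymes, had the highest Npc1, and at 0.1% mouse 5, with the most lowered enzymes, had the highest.

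**Figure D5:**
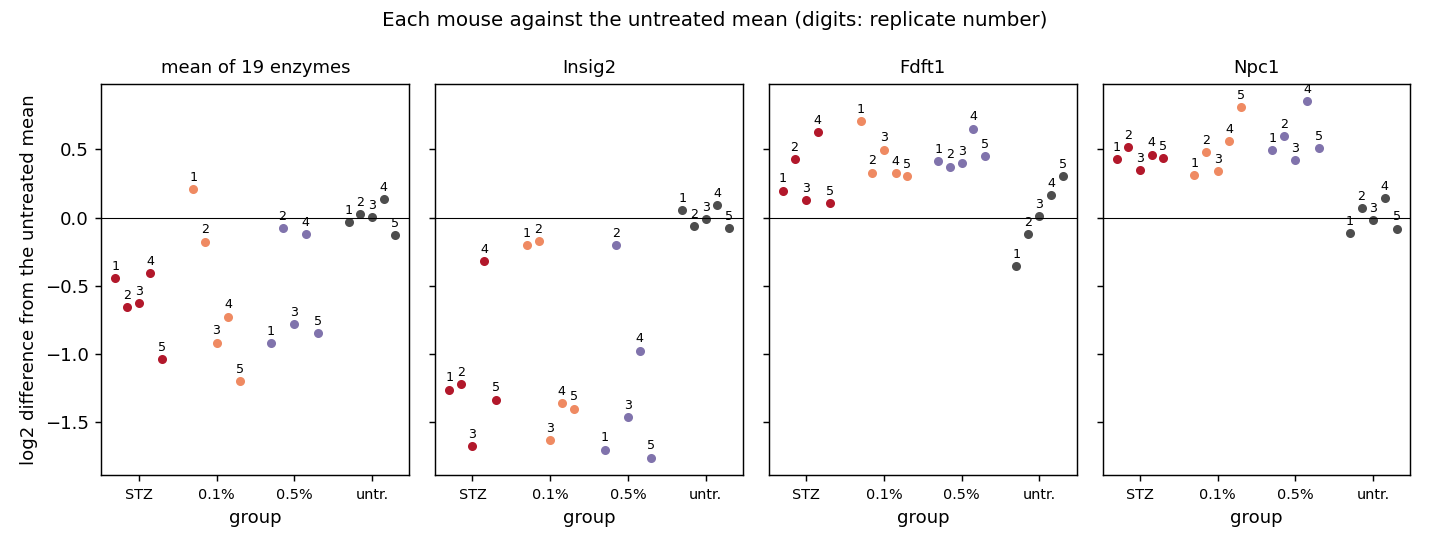
Mean log2 difference from the untreated mean over the 19 enzymes (points, 1 per mouse), in STZ, 0.1% phloridzin, 0.5% phloridzin and untreated liver. Beside it are the differences of Insig2, Fdft1 and Npc1 in the same mice. The enzyme mean runs from −1.20 to 0.21 within the 0.1% phloridzin group and from −0.13 to 0.14 within the untreated group.

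Genes next to the pathway were taken from a list of 51, of which 48 were tested. In STZ liver 7 rose and 8 fell, at 0.1% phloridzin 9 rose and 7 fell, and at 0.5% phloridzin 6 rose and 6 fell against untreated liver, where 13.8%, 16.7% and 12.7% of all genes tested were called. Of these 48, 0 were called against STZ (2 at each dose had an unadjusted p under 0.05). The median over these 48 was −0.06 in STZ liver, against −0.05 over all genes and −0.55 over the 19 synthesis enzymes.

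Of the 6 tested genes of sterol efflux, 2 rose and 1 fell in each diabetic group, where 13.8%, 16.7% and 12.7% of all genes were called. Abcg5 and Abcg8, the paired subunits of the canalicular sterol exporter, rose 1.79-fold and 1.65-fold in STZ (adjusted p = 0.000186 and 0.00103), 1.91-fold and 1.74-fold in 0.1%, and 1.85-fold and 1.73-fold in 0.5% phloridzin liver. The gene that fell was Abca1, the exporter that loads sterol onto apolipoprotein A-I, with log2 differences of −0.36, −0.39 and −0.34 in STZ, 0.1% and 0.5% phloridzin liver (adjusted p = 0.0267, 0.0146 and 0.0371).

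Of the 5 genes of oxysterol and bile acid entry, 2 rose and 2 fell in STZ liver, and 2 rose and 1 fell at each phloridzin dose. Over all genes, 13.8%, 16.7% and 12.7% were called in STZ, 0.1% and 0.5% phloridzin liver. Cyp7a1, the rate-limiting enzyme of bile acid synthesis from cholesterol, rose 8.38-fold in STZ (adjusted p = 0.000354), 3.80-fold in 0.1% (0.0104) and 6.30-fold in 0.5% phloridzin liver (0.00159). Cyp7b1, the hydroxylase of oxysterols, fell 2.84-fold, 3.50-fold and 2.82-fold in the same order (adjusted p = 0.00173, 0.000336 and 0.00229). Cyp39a1, another hydroxylase of oxysterols, rose 4.91-fold, 5.96-fold and 5.10-fold (adjusted p = 0.0377, 0.0178 and 0.0361). Cyp27a1, the sterol 27-hydroxylase of mitochondria, fell 1.37-fold in STZ liver (adjusted p = 0.0223) and had differences of −0.20 and −0.26 at 0.1% and 0.5% phloridzin. Abca1, Cyp39a1 and Cyp27a1 were named after their values were seen.

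Among 9 genes of SREBP cleavage and Insig turnover, 3 fell in STZ liver and 2 at each phloridzin dose, where 6.89%, 8.98% and 6.18% of all genes fell. Erlin1, an endoplasmic reticulum protein that helps to hold SREBP back and to degrade its partners, fell 1.44-fold in STZ, 1.46-fold in 0.1% and 1.45-fold in 0.5% phloridzin liver (adjusted p = 0.00612, 0.0044 and 0.00621). Syvn1, a ubiquitin ligase of the same membrane, fell 1.49-fold, 1.95-fold and 1.92-fold (adjusted p = 0.0462, 0.00181 and 0.00295). Srebf1, the paralogue that drives fatty acid synthesis, was not called, with differences of −0.17, −0.14 and −0.01. The 4 genes that supply acetyl-CoA had medians of −0.50, −0.52 and −0.31 with 0 called.

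Of 15 genes of uptake and of lysosomal and endoplasmic reticulum sterol handling, 2 rose and 1 fell in STZ liver. At 0.1% phloridzin 4 rose and 2 fell, and at 0.5% 2 rose and 2 fell. The share of all genes called was 13.8%, 16.7% and 12.7% in STZ, 0.1% and 0.5% phloridzin liver. The largest rise in STZ liver was that of Vldlr, 2.83-fold (adjusted p = 0.0116), though STZ and untreated mice overlapped. The highest log2 difference among the 15 was 1.43 at 0.1% and 1.63 at 0.5% phloridzin. Vldlr was named after its values were seen. Stard5, a carrier of sterol in the cytosol, rose 1.37-fold in STZ liver (adjusted p = 0.00582). It was also called at both phloridzin doses, with log2 differences of 0.30 and 0.44. Dbi, which binds acyl-CoA, fell 1.47-fold in STZ liver (adjusted p = 0.00173), and its differences of −0.36 and −0.36 at 0.1% and 0.5% phloridzin were called as well.

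Some markers of other cell types differed from untreated mice. Of all genes tested, 6.89%, 8.98% and 6.18% fell and 6.9%, 7.76% and 6.53% rose in STZ, 0.1% and 0.5% phloridzin liver. Of 8 stellate cell markers 4 fell in each diabetic group, and their summed signal was 1756 to 2748 in STZ, 1761 to 2853 in 0.1%, 1971 to 2525 in 0.5% phloridzin and 2476 to 3817 in untreated liver. Of 5 B cell markers 2 fell in each, with sums of 97.1 to 167, 81.7 to 377 and 110 to 177 in the diabetic groups in the same order and 379 to 511 in untreated liver. The measured pancreas markers summed to 421 to 885, 356 to 935 and 355 to 940 in the diabetic groups and 1459 to 1963 in untreated liver, and 1 of the 2 tested fell. The erythroid markers summed to 195 to 1365, 137 to 1098 and 216 to 879 in the diabetic groups and 1259 to 1452 in untreated liver, and the 1 tested fell. Hepatocyte markers summed to 84719 to 119183, 108402 to 232418 and 101583 to 117793 in the diabetic groups and 113998 to 127434 in untreated liver. Of 11 hepatocyte markers 1 fell in STZ liver, 2 rose at 0.1% and 0 were called at 0.5% phloridzin. Of 7 sinusoidal endothelium markers 1 rose and 0 fell in each diabetic group. Of 9 Kupffer cell and macrophage markers 1 rose in each, and 1 fell in STZ liver. Of 5 neutrophil markers 0 were called. None of the 5 T and NK cell markers was above background, and 1 of the 3 tested fell in STZ liver. Only 2 of the 5 B cell markers were above background. Of 4 tested cholangiocyte markers 1 fell in STZ and 0.1% phloridzin liver, and 1 of the 5 measured was above background. The 1 adipocyte marker tested rose in STZ and 0.1% phloridzin liver, with none of the 3 measured above background. The part of these in the results was not tested.

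Leaving out 0.1% phloridzin mouse 4, which had the high albumin signal, gave 4 called genes among the 26 in 0.1% phloridzin liver in place of 8. Leaving out untreated mouse 5 gave 6 in STZ, 5 in 0.1% and 4 in 0.5% phloridzin liver, in place of 8, 8 and 7. Of the 23 calls of a gene in a comparison, 8 were kept whichever array was left out: Hmgcs1, Fdps, Insig2 and Npc1 in STZ, Idi1 and Npc1 in 0.1%, and Insig2 and Npc1 in 0.5% phloridzin liver. Other probe sets of the 26 genes numbered 33, of which 23 were above background, and these had the sign of the chosen one in 18 of 23 cases in STZ, 18 in 0.1% and 19 in 0.5% phloridzin liver. Those of called genes had the sign of the chosen one in 8 of 8 cases in STZ, 10 of 10 in 0.1% and 9 of 9 in 0.5% phloridzin liver. These cases are probe sets and not genes, and some genes gave several. Pmvk, Insig1 and Npc1 had no other probe set, and that of Fdps was under background, so their calls had no such check.

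The other 15 calls were each lost when at least 1 single array was left out, by limma's adjusted p. In STZ liver, the call of Cyp51 was lost without STZ mouse 1, 2, 3 or 5, 0.5% mouse 3 or any untreated mouse (adjusted p up to 0.135). That of Insig1 was lost without STZ mouse 5 (up to 0.0529). That of Pmvk was lost without STZ mouse 2, 3 or 5 or any untreated mouse (up to 0.0919). That of Sc5d was lost without STZ mouse 5 (up to 0.0595). In 0.1% phloridzin liver, the call of Cyp51 was lost without 0.1% mouse 3, 4 or 5 or untreated mouse 3 (adjusted p up to 0.0822). That of Fdft1 was lost without 0.1% mouse 1 or 3 or untreated mouse 1 or 2 (up to 0.0769). That of Hmgcs1 was lost without 0.1% mouse 3, 4 or 5 (up to 0.0690). That of Insig1 was lost without 0.1% mouse 2 or 5 or untreated mouse 1, 2, 3 or 5 (up to 0.122). That of Insig2 was lost without 0.1% mouse 3, 4 or 5 or any untreated mouse (up to 0.108). That of Sc5d was lost without STZ mouse 2, 3 or 4, 0.1% mouse 3, 4 or 5, 0.5% mouse 1 or any untreated mouse (up to 0.137). In 0.5% phloridzin liver, the call of Fdft1 was lost without untreated mouse 1 or 2 (adjusted p up to 0.0725). That of Hmgcs1 was lost without STZ mouse 4, 0.5% mouse 1, 3 or 5 or any untreated mouse (up to 0.135). That of Idi1 was lost without 0.5% mouse 1, 3 or 5 or untreated mouse 2 (up to 0.0783). That of Insig1 was lost without 0.5% mouse 1 or 4 or untreated mouse 1, 3 or 5 (up to 0.0923). That of Sc5d was lost without 0.5% mouse 1, 3 or 5 or any untreated mouse (up to 0.116).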

How the data were processed

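Total RNA of 20 mouse livers, 5 per group with 1 array per mouse, was hybridised to Affymetrix arrays. The values deposited by the authors are intensity values, a linear signal per probe set, and every array had a mean of 100 once 2% of its probe sets were trimmed at each end. The program the authors used for this is not named by the sources at hand. Among the 45101 probe sets, 34945 named 1 gene (18193 genes in all), 932 several and 9160 none, and 64 were controls. Symbols were checked through Entrez identifiers, of which 34741 were found in the reference gene table.

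Groups were taken from the sample labels. Log2 of signal plus 16 was fitted with limma 3.58.1 (R 4.3.3) as 4 group means, with 16 residual and 4.56 prior degrees of freedom. The 12947 genes whose mean reached 8.48, the 40th percentile over probe sets, were tested, two-sided, in 6 comparisons and a moderated F test, and p-values were adjusted by Benjamini and Hochberg over all of them. The fit was tested on simulated data, with independent noise of equal spread in all groups for a gene. The synthesis enzymes had unequal spread, so that test does not speak for them. The difference of Insig2 and Insig1 was tested by exact permutation over all splits of 5 against 5 mice. Motifs were searched and tables and figures made with Python 3.11.15, pandas 2.3.3 and matplotlib 3.10.9. The number of arrays limits precision: over all genes the median 95% interval reached 0.30 on the log2 scale, or 1.23-fold, to either side, and over the 26 measured genes 0.42.

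The genes, lists, tests and alternatives were chosen with earlier results of these data known. Values in every mouse were given for genes called in at least 1 comparison, at most 12 by the smallest adjusted p, and for Insig1, Insig2, Srebf2 and Scap. Other pathway genes were named as the 6 called ones of smallest adjusted p in a comparison. Alternatives were other scalings, filters, pseudocounts, probe set rules, array weights, priors, fits of only the groups compared, a 1.5-fold limit, a replicate block and leaving out each array.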

Additional observations from a re-analysis of the deposited data

Results flagged for a closer look

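Among 104 sets of 5 arrays (26 genes in 4 groups), 5 held 1 array that stood apart from the other 4, by a gap over 0.71 of the range of the set. Chance flags about 1 in 20 such sets. In 0.5% phloridzin liver, Ggps1 of mouse 4 was at 28.8, against 46.3 to 54.5 in the other mice of the group, Fdft1 of the same mouse was at 863, against 708.6 to 749.6, and Hsd17b7 of mouse 5 was at 183, against 282 to 323. In untreated liver, Lss of mouse 4 was at 222.5, against 147 to 165, and Stard4 of mouse 5 was at 344, against 434 to 461.5. Of these genes only Fdft1 was called in a comparison, and its call at 0.5% phloridzin held without mouse 4 of that group. In 0 of the 26 genes did every mouse of 1 phloridzin dose lie above the STZ mean and every mouse of the other dose below it.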

How the results depend on the processing

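The 8 genes called in STZ liver against untreated were 15 with only those groups in the fit and 0 with the 1.5-fold limit, and 4 to 10 with 1 array left out (4 without STZ mouse 5). The 8 called in 0.1% phloridzin liver were 5 with median centring, 5 with no filter, 5 with a pseudocount of 1 and 0 with the 1.5-fold limit. With 1 array left out they were 3 to 14: 14 without 0.1% mouse 1, 3 without 0.1% mouse 3 or 5, 4 without 0.1% mouse 4 or untreated mouse 1, 2 or 3, and 5 without untreated mouse 5. The 7 called in 0.5% phloridzin liver were 14 with array weights, 12 with only those groups and 0 with the 1.5-fold limit. With 1 array left out they were 3 to 11: 11 without 0.5% mouse 2, 3 without 0.5% mouse 1 or untreated mouse 1 or 2, and 4 without 0.5% mouse 3 or 5 or untreated mouse 3 or 5. The 6 passing the F test were 2 with a pseudocount of 1, 12 with array weights, and 1 to 9 with 1 array left out (1 without untreated mouse 1, 2 or 3, 2 without untreated mouse 4 or 5, and 3 without STZ mouse 3 or 5). An alternative chosen after seeing the data, 1 weight per group, gave 10, 10 and 8 and, for the F test, 9. Against STZ and between doses, 0 genes were called in 12 other settings and with each of 20 arrays left out. The cause of these moves was not tested, except that fewer arrays or genes entered some fits by construction.

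Deviations of same-numbered mice correlated between −0.41 and 0.50 over 30 pairs, with a median of 0.08 and 13 pairs above 0.1. Those of mice with unlike numbers correlated between −0.53 and 0.54 over 120 pairs, with a median of −0.01 and 31 above 0.1. Whether the replicate numbers pair the mice was not tested. With replicate number as a block the counts were 11, 9 and 10, the F test gave 8, and Insig1 at 0.1% phloridzin was the only call of the 23 that ended. Of 276 values of called genes under other settings 223 kept their call and 53 did not, of 460 with an array left out 375 kept it and 85 did not, and none turned its sign. For Insig2 minus Insig1, the sign of the 0.1% difference from STZ turned with the mean of probe sets (−0.024), and with 1 array left out the difference ran from −0.199 to 0.319. That at 0.5% ran from −0.328 to 0.0476, and that between doses from −0.453 to 0.0655. Over all genes, 893 of 1785 STZ calls were higher, and 1138 of 1647 with median centring. Over the 26 genes the median 95% interval reached 0.42 on the log2 scale to either side, with narrower ones for some genes, which limits the differences that could be seen.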
